A study of Arabidopsis thaliana with 18 samples.

Results

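Leaves of the Arabidopsis thaliana line ml5 were compared with leaves of WT (wild type) after 7 days of darkness. The comparison used 6 of the 18 libraries of the study, 3 of ml5 at day 7 and 3 of WT at day 7, picked by genotype and time alone. All genes of the deposited table took part: 27628 were listed and 19493 had enough counts to be tested. The study profiled leaf RNA by sequencing in WT, ml2 and ml5, each before darkness (day 0) and at day 7, with 3 libraries in each of the 6 groups. The labels call ml2 and ml5 knockdowns of ML2 and ML5, which belong to the Mei2-like genes, and give dark as the only treatment. The sources used here do not say how the knockdowns were made, whether each line is a single transformant, how old the plants were or at what hour they were harvested. The table marks its groups CK and D with a line number, and these were read as day 0, day 7, ml2 and ml5. Replicates are not documented as separate plants, so the tests reflect variation among these libraries alone, which may be technical.

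Mei2-like proteins are plant RNA-binding proteins named after the yeast meiosis regulator Mei2, and members of the family have been tied to meiosis and growth. Prolonged darkness starves a leaf of sugar. The leaf then dismantles its chloroplasts, breaks down chlorophyll, protein and lipid, and exports the nitrogen, a programme known as dark-induced senescence. Autophagy, which carries cell contents to the vacuole inside double membranes built with ATG proteins, is one of the recycling routes that starved leaves use.

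Totals ran from 17722218 to 20417396 counts in the 6 libraries and from 14914598 to 20417396 in all 18. On the first principal component of the 6 libraries, which held 62.8% of the variance, the groups stood apart. Levels are given as CPM, counts scaled to the size of the library. Fold changes are log2, with standard errors (SE), and adjusted p-values are those of edgeR's quasi-likelihood test with Benjamini-Hochberg adjustment. A gene was called at an adjusted p under 0.05. One library of another group, ml2 at day 0 replicate 1, differed more from its group than any other. It enters the shared estimate of spread and also the filter and the scaling of the libraries. Without it the median log2 fold change of ml5 against WT at day 7 was -0.006, beside -0.03 with it.

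The gene named by the line was nearly absent from it. ML5 (AT1G29400, chr1:10289998-10294630, TAIR10.1) had 342, 328 and 313 CPM in the WT day 7 libraries and 0.600, 0.886 and 0.584 CPM in the ml5 libraries. The groups were far apart, with 328 ± 14.5 CPM (SD, n = 3) in WT and 0.690 ± 0.170 CPM in ml5, which is 0.211% of WT. The log2 fold change was -8.87 ± 0.09 (adjusted p = 1.66e-33).

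Across the transcriptome 8444 of 19493 tested genes were called, which is 43.3%. Of these 3762 were higher in ml5 (19.3% of the tested genes) and 4682 lower (24%). Most differences were small, and only 498 genes were at least 2-fold higher and 481 at least 2-fold lower (2.55% and 2.47%). With a stricter filter on low counts, which tested 16252 genes, these were 373 and 282. The median log2 fold change of all tested genes was -0.03. In 10825 genes (55.5%) the 3 ml5 libraries did not overlap the 3 WT libraries. Many genes named below were picked in part because their libraries do not overlap, so for them this is no separate support. With 3 against 3, an exact permutation test cannot give a two-sided p below 0.1, so calls rest on variance shared between genes.

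Of the rest of the family, ML2 was higher in ml5. Its levels were 247, 257 and 254 CPM in WT against 303, 305 and 303 CPM in ml5, without overlap, and the difference was 0.26 ± 0.05 (adjusted p = 7.32e-05). ML1 and ML4 did not pass the test, at -0.05 ± 0.05 (adjusted p = 0.491) and -0.09 ± 0.08 (adjusted p = 0.384). The related genes TEL1 and TEL2 had 0 counts in all 6 libraries, and ML3 was not analysed here. Of the 20 nearest neighbours of ML5 on the chromosome, 19 were tested, 8 were higher and 4 lower, beside 19.3% and 24% of all tested genes. Among the higher ones, AT1G29450 and AT1G29460 had 0 CPM in WT and only 0.102 and 0.432 CPM in ml5. An adjacent gene, PAI3, a tryptophan synthesis gene with near-identical copies, went from 1.41 to 4.36 CPM, a difference of 1.60 ± 0.27 (adjusted p = 1.58e-05). The adjacent gene on the other side, COR413IM1, did not pass (0.09 ± 0.05, adjusted p = 0.110).

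The lists of genes described here split by function. Nuclear photosynthesis, chlorophyll synthesis and cytosolic ribosome lists held mostly higher members. Lists for senescence, chlorophyll breakdown, proteolysis, lipid breakdown, jasmonate, ethylene and glucosinolates held mostly lower members, and autophagy and amino acid breakdown lists were mixed. The counts of each list stand beside 19.3% higher and 24% lower over all tested genes.

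**Figure D1:**
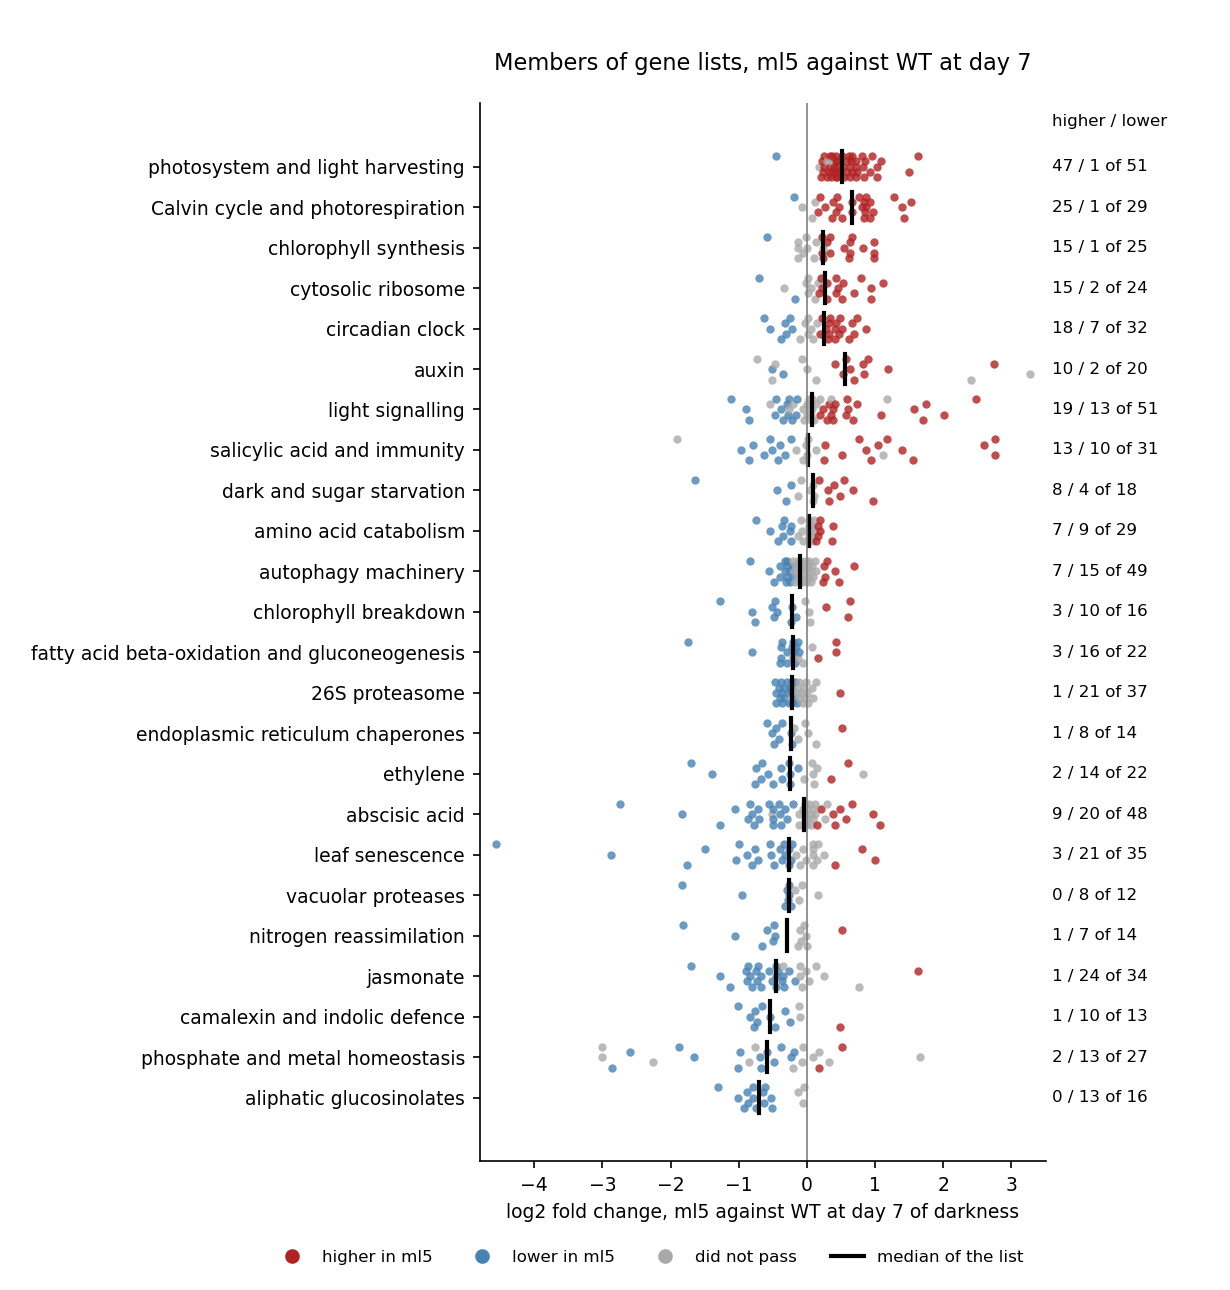
Log2 fold change of each tested member of 24 gene lists, ml5 against WT at day 7 of darkness. Each point is a gene, red where it was called higher in ml5, blue where called lower and grey where it did not pass, black bars are list medians, and the numbers at the right give members called higher and lower of those tested. The photosystem list has 47 of 51 members higher and the jasmonate list 24 of 34 lower.

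Nuclear photosynthesis genes were higher in ml5 after the dark week. Of 51 nuclear genes for the photosystems and their antennae, 47 were higher and 1 lower, with a median of 0.52 against -0.03 over all tested genes. The list holds no chloroplast-encoded gene. Of 88 chloroplast-encoded genes, described further below, 4 were higher and 12 lower, with a median of -0.10. Every listed gene of the trimeric photosystem II antenna (9 of 9), of the photosystem I core (12 of 12), of the photosystem II core and oxygen evolution (10 of 10) and of electron transport and ATP synthesis (8 of 8) was called higher. The lower gene was LHCA5, a minor antenna protein of photosystem I (-0.46 ± 0.07), named after its value was seen. LHCB1.3 (AT1G29930), which encodes a protein of the trimeric antenna, had 285, 287 and 288 CPM in WT and 823, 806 and 808 CPM in ml5. No ml5 library came near a WT library, and the difference was 1.5 ± 0.04 (adjusted p = 4.1e-23). LHCB1 genes are near-identical copies of each other, so reads may have been shared among them.

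LHCB5 (AT4G10340), a monomeric antenna protein, had 68.5, 72.7 and 75.1 CPM in WT and 228, 220 and 219 CPM in ml5. Its libraries were as cleanly split as those of LHCB1.3, at 1.62 ± 0.04 (adjusted p = 4.1e-23). Photosystem I followed. LHCA2 of its antenna rose from 184, 181 and 190 CPM to 396, 391 and 392 CPM (1.09 ± 0.03, adjusted p = 2.94e-21), and PSAF of its core from 144, 150 and 153 CPM to 304, 307 and 299 CPM (1.03 ± 0.04, adjusted p = 5.13e-19). PETC, the Rieske iron-sulphur protein of the cytochrome b6f complex, had 64.6, 60.7 and 64.6 CPM in WT and 131, 130 and 127 CPM in ml5.

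These levels were small remainders in both lines. LHCB5 stood at 11385 ± 123 CPM (SD, n = 3) in WT and 10391 ± 337 CPM in ml5 at day 0, against 72.1 ± 3.31 and 222 ± 4.77 CPM at day 7. LHCB1.3 stood at 38479 ± 1002 and 45674 ± 966 CPM at day 0, against 287 ± 1.5 and 812 ± 9.39 CPM at day 7.

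Carbon fixation and photorespiration moved the same way. Of 29 genes, 25 were higher and 1 lower, with a median of 0.66, and the carbon fixation genes among them numbered 16 higher of 18. The lower gene was GLYK, the glycerate kinase of photorespiration (-0.20 ± 0.05), named after its value was seen. RBCS1A (AT1G67090), a small subunit of Rubisco in a family of close copies, had 93.9, 92.4 and 104 CPM in WT and 257, 257 and 250 CPM in ml5. All ml5 libraries were above all WT libraries by a wide margin (1.39 ± 0.04, adjusted p = 1.76e-22). PRK, the phosphoribulokinase that regenerates the acceptor of carbon dioxide, went from 8.52, 8.18 and 8.96 CPM to 25.2, 24.4 and 24.6 CPM (1.53 ± 0.06, adjusted p = 8.4e-19). FBA2, a chloroplast aldolase, was 1.27 ± 0.04 higher and GGT1, a photorespiratory aminotransferase of the peroxisome, 0.87 ± 0.04 higher.

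Bulk leaf RNA cannot separate more cells of a type from more RNA per cell. The summed level of the 5 mesophyll markers, which include RBCS1A and LHCB2.1, ran from 307 to 327 CPM in the WT libraries and from 613 to 626 CPM in the ml5 libraries, and 4 of the 5 were higher and 1, CA1, lower. Guard cell markers summed to 592 to 609 CPM in WT and 675 to 694 CPM in ml5 (2 of 10 higher, 2 lower), epidermis and trichome markers to 254 to 265 CPM and 267 to 283 CPM. Phloem markers summed to 1160 to 1184 CPM and 1182 to 1228 CPM (2 of 10 higher, 6 lower). Xylem markers summed to 2.71 to 4.19 CPM in WT and 3.17 to 3.92 CPM in ml5, and flower and meristem markers to 2.62 to 3.74 and 3.77 to 4.58 CPM. PDF1 and GL1 of the epidermis, IRX1, VND6 and VND7 of the xylem, and LFY, WUS and CLV3 of the meristem had 0 counts in all 6 libraries. The part of these shifts in the results was not tested.

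The 250 bases before the start of 2 genes of the photosynthesis list are shown because they hold motifs of light-regulated promoters. They are from RefSeq, build TAIR10.1, and each is the member with the largest rise among those with the motif. The G-box CACGTG, bound by bZIP and bHLH factors, is in capitals before LHCB2.3 (chr3:10255656-10255905, plus strand), 88 bases from the start, and a GATAAG motif, which reads CTTATC on this strand, is in capitals before PETC (chr4:1439896-1440145, plus strand), 184 bases from the start.
LHCB2.3: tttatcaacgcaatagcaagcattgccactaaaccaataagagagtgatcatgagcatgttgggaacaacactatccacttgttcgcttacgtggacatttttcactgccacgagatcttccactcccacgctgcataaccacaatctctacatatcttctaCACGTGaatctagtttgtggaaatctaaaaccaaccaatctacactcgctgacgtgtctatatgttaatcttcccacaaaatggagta
PETC: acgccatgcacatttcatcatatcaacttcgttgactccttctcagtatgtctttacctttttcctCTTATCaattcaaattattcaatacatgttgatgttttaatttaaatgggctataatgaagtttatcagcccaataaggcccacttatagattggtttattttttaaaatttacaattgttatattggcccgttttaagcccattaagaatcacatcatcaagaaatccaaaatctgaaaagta
Both strands of the 250 bases were searched in 19336 genes. The G-box was present in 19.6% of the 51 photosystem genes and 7.37% of all windows, and GATAAG in 23.5% and 12.5%. Among genes at least 2-fold higher in ml5, the shares were 6.87% for the G-box and 18.6% for GATAAG. A match describes the letters and says nothing of binding.

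Chlorophyll genes split between synthesis and breakdown. Of 25 synthesis genes, 15 were higher and 1 lower (2 lower without WT day 7 replicate 1 or without ml2 day 0 replicate 1), with a median of 0.24. CRD1, a subunit of the cyclase that closes the fifth ring of chlorophyll, had 61.7, 60.1 and 59.9 CPM in WT and 119, 118 and 122 CPM in ml5 (0.98 ± 0.04, adjusted p = 4.16e-19). CHLP, the geranylgeranyl reductase that makes the phytol tail, was 0.99 ± 0.04 higher, CHLM, a methyltransferase, 0.98 ± 0.06 higher, and CAO, which makes chlorophyll b, 0.54 ± 0.04 higher.

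Breakdown genes were mostly lower, 10 of 16 against 3 higher, with a median of -0.23. SGR1, the magnesium dechelatase known from stay-green plants, had 398, 384 and 388 CPM in WT and 229, 221 and 223 CPM in ml5. Its groups did not overlap (-0.80 ± 0.05, adjusted p = 5.94e-15), and its relative SGR2 was -0.76 ± 0.06. PPH, the pheophytinase that removes the phytol tail, went from 887, 878 and 884 CPM to 630, 611 and 617 CPM (-0.51 ± 0.04, adjusted p = 9.14e-13). NYC1, which starts chlorophyll b breakdown, and PAO, which opens the ring, were also lower (-0.47 ± 0.04 and -0.44 ± 0.05). HCAR, which takes the step after NYC1 on the way from chlorophyll b to chlorophyll a, was higher (0.64 ± 0.08). These 3 were chosen after their values were seen. PES1, which esterifies phytol and fatty acids released from thylakoids, had 1059, 1016 and 1030 CPM in WT and 459, 452 and 448 CPM in ml5, among the most abundant transcripts that were at least 2-fold lower (-1.19 ± 0.05, adjusted p = 7.44e-18). Without ml5 day 7 replicate 3, 1 breakdown gene was called higher.

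Senescence genes were lower, led by the classical marker. SAG12 (AT5G45890), a cysteine protease of senescent leaves, had 89.8, 88.7 and 86.2 CPM in WT and 3.86, 4.09 and 3.19 CPM in ml5. It had 0 counts in every day 0 library of both lines, and at day 7 the groups were over an order of magnitude apart (-4.57 ± 0.09, adjusted p = 4.31e-22). SAG29, a sugar transporter of the SWEET family, went from 22.6, 23.5 and 22.5 CPM to 3.26, 3.00 and 3.05 CPM (-2.88 ± 0.13, adjusted p = 1.54e-17). BFN1, a nuclease of dying tissue named after its values were seen, was -1.76 ± 0.10. Of 35 senescence genes, 21 were lower and 3 higher, with a median of -0.26. Fitting the 6 libraries alone called 8 higher, and leaving out ml2 day 0 replicate 1 called 6.

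Among 20 senescence transcription factors 11 were lower and 3 higher. NAC019 (AT1G52890), a NAC factor of stress and senescence, had 304, 305 and 304 CPM in WT and 106, 112 and 107 CPM in ml5. The difference was -1.49 ± 0.07 (adjusted p = 1.57e-17). VNI2, a NAC factor known to delay senescence, was also lower, from 402, 399 and 396 CPM to 220, 217 and 212 CPM (-0.88 ± 0.05, adjusted p = 5.55e-16). ORE1, a main positive regulator, was -0.31 ± 0.05 (adjusted p = 1.01e-05). The 3 higher factors were WRKY54 (1.01 ± 0.15), WRKY70 (0.81 ± 0.06), both known as repressors of senescence, and ORS1 (0.41), a NAC factor that promotes it. The 250 bases before NAC019 (chr1:19698483-19698732, minus strand, TAIR10.1, RefSeq) are shown because it fell furthest of the listed senescence factors and carries a G-box, in capitals, 126 bases from the start.
NAC019: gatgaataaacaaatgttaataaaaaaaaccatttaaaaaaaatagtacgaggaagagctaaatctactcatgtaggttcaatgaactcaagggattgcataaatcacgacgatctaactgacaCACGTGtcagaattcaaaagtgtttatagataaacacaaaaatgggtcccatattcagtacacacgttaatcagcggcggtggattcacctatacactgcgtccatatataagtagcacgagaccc
The G-box was present before 10.4% of the genes at least 2-fold lower in ml5, beside the 7.37% of all windows.

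**Figure D2:**
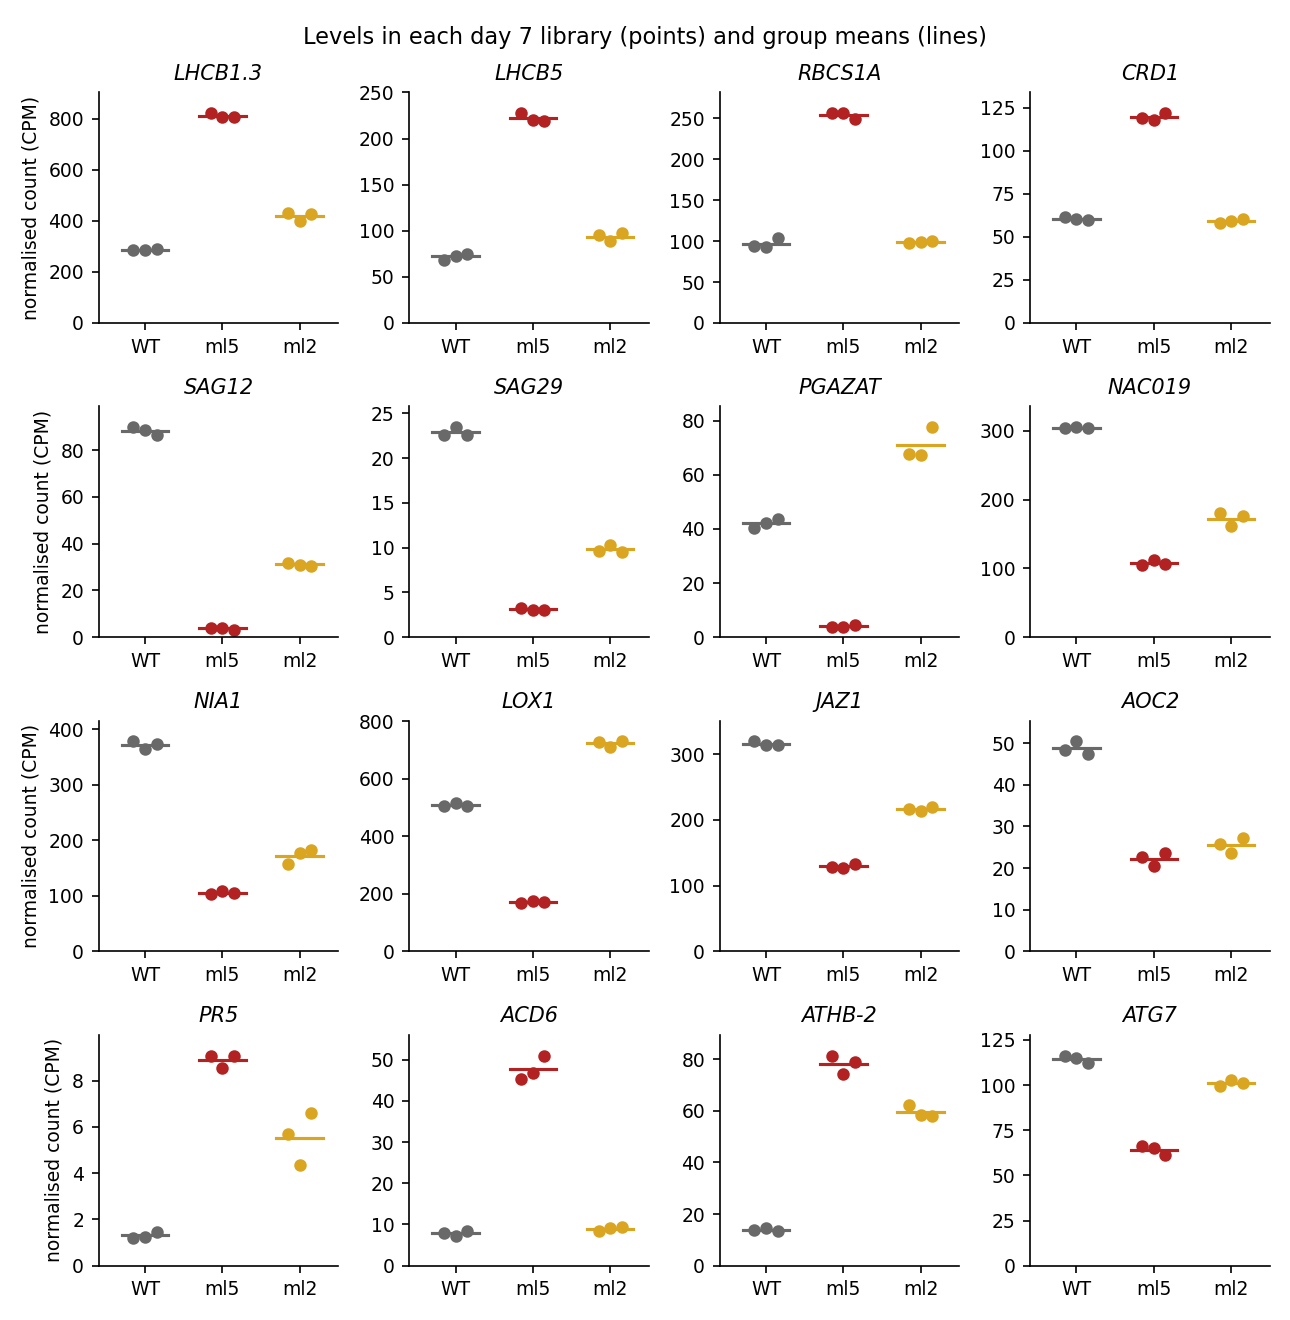
Levels of 16 genes in each day 7 library (points, CPM) of WT, ml5 and ml2, with group means as lines and the vertical axes starting at 0. In each panel the 3 ml5 points lie apart from the 3 WT points, as for SAG12 with 86.2 to 89.8 CPM in WT and 3.19 to 4.09 CPM in ml5. Groups that do not overlap were a condition of the rule for naming genes.

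Autophagy genes were moved little. Of 49 tested genes, 7 were higher and 15 lower, none by 2-fold, with a median of -0.10. Over all tested genes 19.3% were higher and 24% lower, and the counts of the steps stand beside these shares. The initiation kinase complex had 1 higher and 2 lower of 7, the phosphatidylinositol kinase complex and membrane supply 2 higher and 7 lower of 15, the conjugation enzymes 3 lower of 9, the ATG8 proteins 2 higher and 1 lower of 9, and the receptors 2 higher and 2 lower of 9. Fitting the 6 libraries alone called 13 genes higher.

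ATG7 (AT5G45900), the activating enzyme of both conjugation systems, had the largest fall of the list. Its levels were 116, 115 and 112 CPM in WT and 66.1, 65.2 and 61.5 CPM in ml5. The groups did not overlap (-0.83 ± 0.07, adjusted p = 2.89e-11), while at day 0 ATG7 did not pass (adjusted p = 0.993). ATG1A, a kinase that starts autophagosome formation, was -0.48 ± 0.05 (adjusted p = 1.08e-08). ATG14A, a subunit of the lipid kinase complex, was -0.56 ± 0.07, and ATI1, a receptor for plastid proteins, was higher, at 127, 121 and 130 CPM in WT and 178, 175 and 172 CPM in ml5 (0.47 ± 0.05, adjusted p = 3.11e-09). ATG9, the membrane scramblase, was -0.39 ± 0.06, ATG8E 0.30 ± 0.07, ATG8A -0.20 ± 0.07, and NBR1, a cargo receptor, did not pass (0.06 ± 0.04, adjusted p = 0.3); these 4 were chosen after their values were seen.

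**Figure D3:**
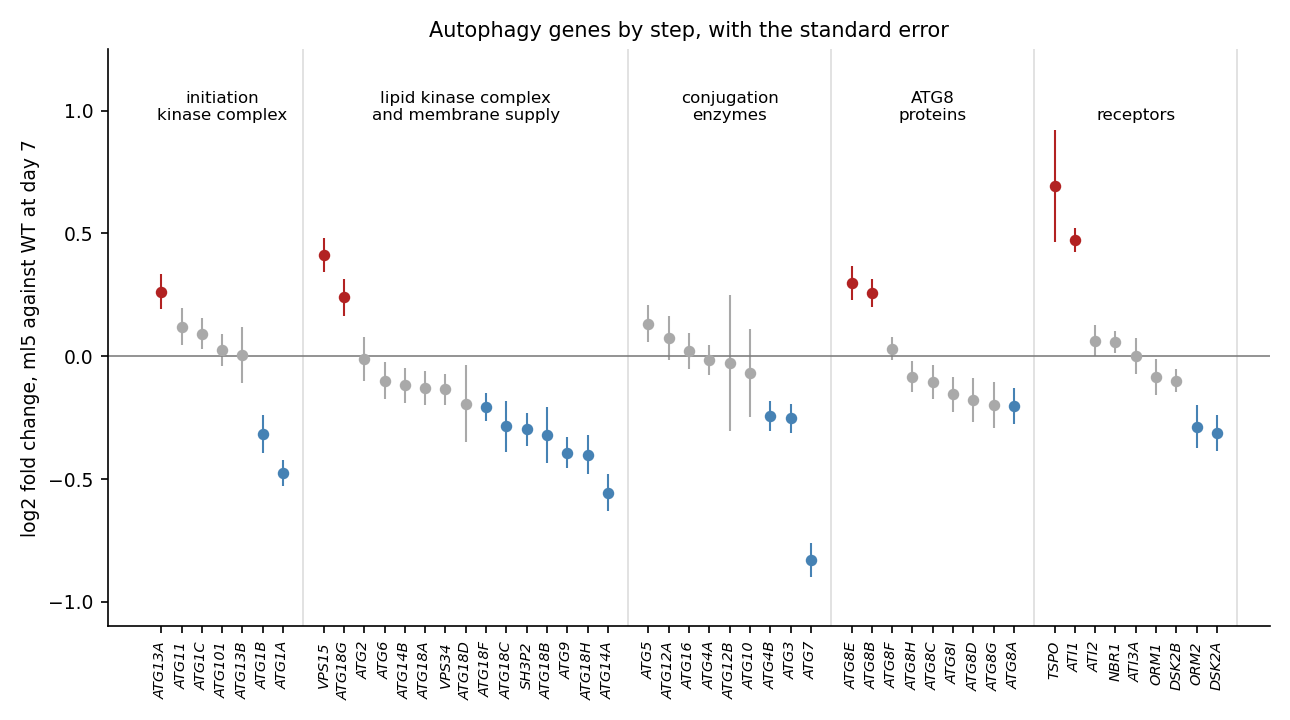
Log2 fold change, ml5 against WT at day 7, of the 49 tested autophagy genes by step, with SE as bars, red for called higher, blue for called lower and grey for not passing. The values run from -0.83 for ATG7 to 0.69 for TSPO.

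Other routes of recycling were lower by small amounts. Of 37 genes of the 26S proteasome 21 were lower and 1 higher (3 higher with the 6 libraries alone), with a median of -0.21, and RPT6B, an ATPase of the regulatory particle, had 70.9, 70.2 and 73.4 CPM in WT and 52.9, 51.2 and 50.6 CPM in ml5 (-0.47 ± 0.05, adjusted p = 2.02e-08). Of 12 vacuolar proteases 8 were lower and none passed as higher. RD21A, a papain-type protease, was -0.28 ± 0.03 and the processing enzyme GAMMA-VPE -0.29 ± 0.04. Of 15 genes of fatty acid beta-oxidation 12 were lower and 1 higher, among them the acyl-CoA oxidase ACX1 (-0.39 ± 0.05) and the thiolase KAT2 (-0.29 ± 0.04).

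PCK2, a phosphoenolpyruvate carboxykinase, stood out with 133, 135 and 133 CPM in WT and 39.8, 40.3 and 39.3 CPM in ml5. It had 0 counts in the day 0 libraries of both lines and a day 7 difference of -1.75 ± 0.05 (adjusted p = 2.27e-18). MIOX4, an inositol oxygenase, showed the same form, with 159, 159 and 162 CPM in WT and 46.1, 40.7 and 44.2 CPM in ml5 (-1.87 ± 0.07, adjusted p = 7.12e-20).

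Of 14 genes of nitrogen reassimilation 7 were lower, 6 did not pass and 1 was higher. NIA1 (AT1G77760), a nitrate reductase, had 378, 365 and 374 CPM in WT and 103, 108 and 106 CPM in ml5, without overlap (-1.82 ± 0.09, adjusted p = 3.3e-16). The cytosolic glutamine synthetases GLN1-1, GSR2 and GLN1;4 were -0.66 ± 0.04, -0.50 ± 0.04 and -1.05 ± 0.08. Amino acid breakdown was mixed, with 7 of 29 higher and 9 lower (median 0.04), beside 19.3% and 24% of all tested genes. The count of higher genes was 14 with the 6 libraries alone and 11 without ml2 day 0 replicate 1. POX2, a proline dehydrogenase, was -0.74 ± 0.06, and the glutamate dehydrogenase GDH2 -0.42 ± 0.04, whereas HGO of tyrosine breakdown was 0.36 ± 0.04.

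Among chaperone genes, 1 of 13 heat shock genes and none of those of the endoplasmic reticulum were at least 2-fold lower. The heat shock median was -0.04. HSP70 (AT3G12580), a cytosolic heat shock protein, had 1175, 1171 and 1181 CPM in WT and 529, 526 and 524 CPM in ml5 (-1.16 ± 0.05, adjusted p = 2.64e-17). Of 13 heat shock genes 6 were lower, 6 did not pass and 1 was higher (3 with the 6 libraries alone and 2 without WT day 7 replicate 2). Of 14 chaperones of the endoplasmic reticulum 8 were lower, with BIP1 at -0.51 ± 0.06, and 1, the calreticulin CRT3, was higher (0.52 ± 0.05), with 2 higher without ml2 day 0 replicate 1.

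Genes known to be induced by darkness and sugar starvation did not share 1 direction. Of 18 genes 8 were higher and 4 lower, with a median of 0.09. DIN11, a dioxygenase gene induced by darkness, had 56.6, 60.8 and 58.6 CPM in WT and 21.1, 16.3 and 19.3 CPM in ml5 (-1.64 ± 0.08, adjusted p = 8.45e-17). TPS8, a trehalose phosphate synthase-like gene, went the other way, from 122, 112 and 117 CPM to 227, 224 and 239 CPM (0.97 ± 0.04, adjusted p = 3.3e-17). Among 15 genes of the energy-sensing kinases SnRK1 and TOR, 4 were higher and 5 lower (median -0.03), beside 19.3% and 24% of all tested genes. KING1 and AKINBETA1 of SnRK1 were 0.71 ± 0.04 and 0.68 ± 0.05 higher, and S6K2, a kinase downstream of TOR, was -0.60 ± 0.06.

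Cytosolic ribosome genes were higher, 15 of 24 against 2 lower, with a median of 0.26. RPS15A had 42.3, 38.6 and 41.2 CPM in WT and 88.2, 90.3 and 87.1 CPM in ml5 (1.12 ± 0.06, adjusted p = 1.77e-15), and RPS6B, the target of S6 kinase, 115, 113 and 116 CPM against 225, 219 and 215 CPM (0.94 ± 0.05, adjusted p = 9.21e-16). The 250 bases before RPS15A (chr1:2409792-2410041, minus strand, TAIR10.1, RefSeq) are shown because it rose most of the listed ribosome genes with a site II motif, TGGGCC, in capitals 225 bases from the start.
RPS15A: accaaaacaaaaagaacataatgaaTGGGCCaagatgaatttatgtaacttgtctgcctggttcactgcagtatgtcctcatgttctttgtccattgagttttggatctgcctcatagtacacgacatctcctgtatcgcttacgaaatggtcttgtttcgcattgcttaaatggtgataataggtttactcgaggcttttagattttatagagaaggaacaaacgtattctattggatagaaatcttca
TGGGCC was found on either strand before 58.3% of the 24 ribosome genes, 37.8% of the 37 proteasome genes, which were mostly lower, and 16.6% of all windows. The highest-expressed genes at least 2-fold higher in ml5 were the ubiquitin gene UBQ3, from 976, 962 and 981 CPM to 2507, 2478 and 2484 CPM (1.36 ± 0.05), the galactosidase BGAL1 (1.01 ± 0.06) and ACR9 (1.02 ± 0.05).

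Jasmonate genes were mostly lower. Of 34 genes 24 were lower and 1 higher, with a median of -0.45, and the count of higher genes was 3 with library sizes alone, 3 without ml2 day 0 replicate 1, 3 with the 6 libraries alone and 2 without WT day 7 replicate 1. Synthesis genes were lower in 10 of 12 cases. AOC2, an allene oxide cyclase, had 48.3, 50.4 and 47.4 CPM in WT and 22.7, 20.6 and 23.5 CPM in ml5 (-1.13 ± 0.06, adjusted p = 3.66e-16). OPCL1, which activates the precursor for beta-oxidation, was -0.88 ± 0.05.

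Of 14 genes for repressors, receptor and factors 10 were lower. JAZ1 (AT1G19180), a repressor that jasmonate itself induces, had 319, 315 and 314 CPM in WT and 129, 128 and 133 CPM in ml5, without overlap (-1.28 ± 0.05, adjusted p = 3.9e-19). JAZ6 was -0.72 ± 0.04 and the factor MYC2, named after its values were seen, -0.81 ± 0.05. Catabolism and responsive genes were lower in 4 of 8 cases and higher in 1. That higher member was PDF1.2 (1.63 ± 0.16), a defensin driven by jasmonate and ethylene together. LOX1, a lipoxygenase outside the pathway, had 507, 514 and 504 CPM in WT and 168, 175 and 172 CPM in ml5 (-1.56 ± 0.07, adjusted p = 2.03e-17).

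Salicylic acid and immunity genes went both ways, with 13 of 31 higher and 10 lower. The responsive and defence genes held 7 higher and 5 lower of 15. PR5, a thaumatin-like defence protein, had 1.22, 1.26 and 1.46 CPM in WT and 9.08, 8.57 and 9.07 CPM in ml5 (2.76 ± 0.16, adjusted p = 4.16e-15). ACD6 (AT4G14400), a membrane protein that drives salicylic acid defence, had 7.85, 7.24 and 8.5 CPM against 45.3, 46.8 and 50.9 CPM (2.6 ± 0.07, adjusted p = 2.34e-22). BGL2, a glucanase, was 1.56 ± 0.06. Of the salicylic acid synthesis genes, ICS1 was higher (0.77 ± 0.10) while PBS3 (-0.84 ± 0.09) and EPS1 (-0.62 ± 0.08) were lower, all 3 named after their values were seen. WRKY33, a factor of camalexin synthesis, went from 242, 243 and 233 CPM to 116, 124 and 126 CPM (-0.97 ± 0.07, adjusted p = 2.42e-13).

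Transcripts of the glucosinolate and indole defence routes were mostly lower. Of 16 genes for aliphatic glucosinolates 13 were lower and none passed as higher, with a median of -0.70. SOT17, the sulphotransferase of the last core step, had 40.4, 41.2 and 38.5 CPM in WT and 21.5, 20.5 and 21.2 CPM in ml5 (-0.93 ± 0.06, adjusted p = 2.84e-13), and BCAT4 and IPMI2 of chain elongation were -0.86 ± 0.05 and -1.02 ± 0.06. Of 13 camalexin and indolic genes 10 were lower and 1 higher, with MYB51, a regulator, at -0.78 ± 0.07 and PEN2, a myrosinase, at -0.46 ± 0.04. TGG2, the main leaf myrosinase with TGG1, was among the largest rises, from 49.6, 50 and 53.2 CPM to 254, 251 and 253 CPM (2.31 ± 0.04, adjusted p = 1.67e-26).

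Ethylene genes were lower in 14 of 22 cases and higher in 2 (5 with the 6 libraries alone), with the ethylene-forming oxidase ACO4 at -0.58 ± 0.05 and the factor EIL1 at 0.61 ± 0.05. Abscisic acid genes were lower in 20 of 48 cases and higher in 9. Within them NCED2, of hormone synthesis, went from 5.59, 7.34 and 5.69 CPM to 0.643, 1.35 and 0.764 CPM (-2.74 ± 0.24, adjusted p = 4.57e-10), the phosphatases PP2CA and SAG113 were -0.84 ± 0.04 and -0.80 ± 0.05, and the receptor PYL8 was 0.97 ± 0.06. Auxin genes were higher in 10 of 20 cases and lower in 2 (1 without WT day 7 replicate 1), with the efflux carrier PIN3 at 0.69 ± 0.10 and the receptor TIR1 at 0.57 ± 0.06. CKX5, which degrades cytokinin, was -1.14 ± 0.08, and CCD8 of strigolactone synthesis had 698, 696 and 704 CPM in WT and 454, 456 and 452 CPM in ml5 (-0.62 ± 0.04, adjusted p = 3.94e-12).

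Shade and light signalling genes included some of the largest rises. ATHB-2 (AT4G16780), a homeobox factor of shade avoidance, had 13.9, 14.4 and 13.4 CPM in WT and 81.3, 74.1 and 79.0 CPM in ml5 (2.49 ± 0.07, adjusted p = 1.9e-22). HFR1, a brake on shade growth, went from 54.8, 48.0 and 52.7 CPM to 175, 172 and 175 CPM (1.75 ± 0.06, adjusted p = 2.23e-20), and PIL1, another shade marker, was 2.0 ± 0.20. BBX14, a B-box factor, was 1.70 ± 0.06. Over the 51 genes of the list 19 were higher and 13 lower, a median of 0.07, and scaling by library sizes alone left 7 lower. HY5, a factor that promotes light responses, was lower (-0.84 ± 0.08) and PHYB, the red light receptor, higher (0.57 ± 0.05), both named after their values were seen.

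Clock genes were higher in 18 of 32 cases and lower in 7, with a median of 0.25. LUX of the evening complex had 36.5, 39.1 and 38.1 CPM in WT and 59.8, 60.1 and 55.3 CPM in ml5 (0.62 ± 0.06, adjusted p = 1.16e-09), and the morning gene PRR9 had 198, 199 and 196 CPM against 137, 136 and 134 CPM (-0.55 ± 0.05, adjusted p = 1.41e-10). The hour of harvest is not given, so a shift of phase and a shift of level cannot be told apart. MAF5, a floral repressor, was 2.08 ± 0.12 higher and TEM1 and TEM2, which also repress flowering, 1.06 ± 0.07 and 0.73 ± 0.05.

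Of 25 catalase and antioxidant genes 6 were higher and 9 lower (median 0.003), beside 19.3% and 24% of all tested genes. FSD1, an iron superoxide dismutase of the chloroplast, had 84.0, 92.1 and 88.6 CPM in WT and 254, 264 and 246 CPM in ml5 (1.53 ± 0.05, adjusted p = 7.35e-20), while the copper-zinc enzymes CSD1 and CSD2 were -0.77 ± 0.05 and -0.71 ± 0.06. Of 27 phosphate, metal and sulphur genes 13 were lower and 2 higher (1 without WT day 7 replicate 1 or without ml5 day 7 replicate 3). LSU2, a marker of sulphur shortage, had 40.9, 39.4 and 41.5 CPM in WT and 11.2, 13.8 and 13.7 CPM in ml5 (-1.66 ± 0.09, adjusted p = 4.47e-16), and APR1 of sulphate reduction was -0.98 ± 0.06.

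Among single genes the largest falls after ML5 and SAG12 included PGAZAT (AT2G41850), a polygalacturonase of cell separation. It had 40.4, 42.3 and 43.5 CPM in WT and 3.77, 3.84 and 4.45 CPM in ml5, with 0 counts in the day 0 libraries of both lines (-3.39 ± 0.10, adjusted p = 1.06e-18). MRD1, TPS03, a terpene synthase, and GPAT2, a glycerol phosphate acyltransferase-like gene, were -3.26 ± 0.22, -2.85 ± 0.16 and -1.94 ± 0.11, and the anthocyanin regulator PAP1 -1.91 ± 0.15. At day 0 PAP1 was already lower, at -2.79, while GPAT2 was higher, at 1.05. For MRD1 the dark response of ml5 minus that of WT was 1.49, so its gap was wider at day 0. That MRD1 call ended without ml5 day 0 replicate 3 or without ml5 day 7 replicate 2. OXS3, an oxidative stress gene, went from 16.1, 16.4 and 16.1 CPM to 77.2, 76.9 and 78.0 CPM (2.25 ± 0.08, adjusted p = 8.04e-20). ECS1, a cell wall protein, was 1.77 ± 0.05 higher.

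The chloroplast share of counts was 0.138% to 0.217% in the WT libraries and 0.107%, 0.0906% and 0.212% in ml5 replicates 1, 2 and 3. Of 88 chloroplast-encoded genes 4 were higher (2 without ml5 day 7 replicate 3 or WT day 7 replicate 3) and 12 lower. The lower count ranged from 0 without ml5 day 7 replicate 2 to 19 without ml5 day 7 replicate 3, so it rests on single libraries. Of 68 tested mitochondria-encoded genes 4 were higher and 9 lower. Without WT day 7 replicate 1 these counts were 2 and 5, 5 were lower without WT day 7 replicate 2, 4 were lower without ml5 day 7 replicate 2, and 2 were higher without ml5 day 7 replicate 3.

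Before darkness the 2 lines already differed. At day 0, 7467 genes were called (38.3%), 3804 higher in ml5 (19.5%) and 3663 lower (18.8%), from libraries that the day 7 comparison does not use. Without ml2 day 0 replicate 1 the day 0 split was 3630 higher and 4491 lower, and with RLE size factors 3374 and 4119. Of the 3762 genes higher at day 7, 1351 (35.9%) were higher at day 0 too, which is 35.5% of those higher at day 0, and 673 (17.9%) were lower. Of the 4682 lower at day 7, 1190 (25.4%) were also lower at day 0, which is 32.5% of those lower at day 0, and 915 (19.5%) were higher.

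Several groups stood on opposite sides at the 2 days. Carbon fixation and photorespiration genes, mostly higher at day 7, were lower in 27 of 29 cases at day 0 (median -0.45), and nuclear photosystem genes were lower in 27 of 51 and higher in 6. Chloroplast-encoded genes were higher in 67 of 88 cases at day 0 and lower in 0 (median 0.59). Senescence genes were higher in 17 of 35 cases and lower in 5 at day 0, jasmonate genes higher in 17 of 34 and lower in 3. JAZ1 was 0.58 at day 0 and -1.28 at day 7, NAC019 1.24 and -1.49. In contrast, aliphatic glucosinolate genes were lower in 16 of 16 cases at day 0 (median -0.82).

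The difference of the dark response itself, ml5 less WT, was tested and called in 6906 genes (35.4%), 3387 higher (17.4%) and 3519 lower (18.1%). This split turned to 4383 higher and 3222 lower without ml2 day 0 replicate 1, and to 3757 and 3139 with RLE size factors. The dark response difference was called higher in 47 of 51 nuclear photosystem genes and in 29 of 29 carbon fixation and photorespiration genes. Among 88 chloroplast-encoded genes, whose day 7 counts rest on single libraries, it was called lower in 43 and higher in 0. It was lower in 19 of 35 senescence genes and 26 of 34 jasmonate genes. It was lower in 5 of 7 tested EXORDIUM genes, a family with members induced by brassinosteroid and low carbon, whose day 0 median was 1.60. Of these EXO had a difference of -5.31 ± 0.15, with 1.77 ± 0.56 CPM in WT and 42.1 CPM in ml5 at day 0, and 84.8 and 51.1 CPM at day 7.

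**Figure D4:**
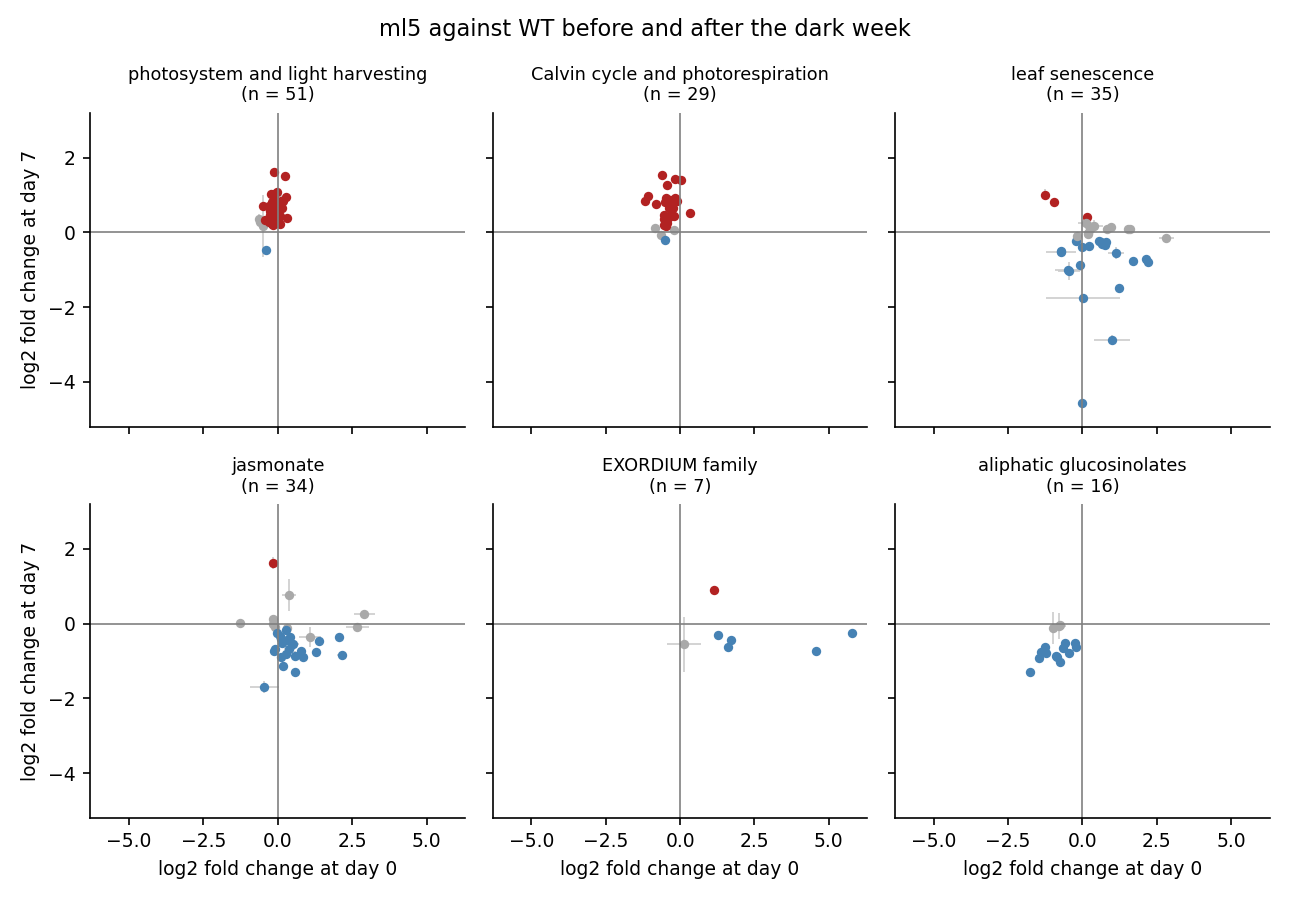
Log2 fold change of ml5 against WT at day 0 (horizontal) and day 7 (vertical) for the tested members of 6 gene lists, with SE as bars and colours by the day 7 call (red higher, blue lower, grey not passing). Most genes of the photosystem list and of the joint list of the Calvin cycle and photorespiration lie above 0 at day 7, with medians of 0.52 and 0.66, and glucosinolate genes lie in the lower left.

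The other knockdown line was also compared with ml5 at day 7, and a gap between the lines holds the shifts of both from WT. Between ml5 and ml2 at day 7, 8064 genes were called (41.4%), 3701 higher in ml5 (19%) and 4363 lower (22.4%). Scaling by library sizes alone turned this split to 4954 higher and 3308 lower. Photosystem genes were higher in ml5 than in ml2 in 46 of 51 cases, carbon fixation and photorespiration genes in 26 of 29, and senescence genes were lower in 24 of 35. Against WT, ml2 itself had senescence genes higher in 19 of 35 cases and lower in 7. Its photosystem genes were higher in 14 of 51 cases and lower in 9, beside 2613 and 2423 of all 19493 tested genes. SAG12 was -3.06 against ml2, where it stood at 31.1 CPM. PGAZAT was -4.14 against ml2, where it stood at 70.9 CPM, above its WT libraries. PCK2 and LOX1 were -2.89 and -2.07 against ml2, wider gaps than those against WT.

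Some of the rises were shared in size. HFR1 stood at 170 CPM in ml2 and was 0.03 ± 0.06 against ml2 (adjusted p = 0.701), and PIL1 was -0.13 ± 0.16 against ml2 (adjusted p = 0.581). Neither passed the test between the lines. Jasmonate genes were lower in ml2 than in WT in 20 of 34 cases and higher in 9 (median -0.30). Over all 19493 tested genes, 2423 were lower and 2613 higher in ml2 than in WT. Between the lines, jasmonate genes were lower in ml5 than in ml2 in 19 of 34 cases and higher in 5. The ml2 and ml5 values are both set against the same WT libraries. ATHB-2, at 59.5 CPM in ml2, was 0.39 higher in ml5, and ACD6, at 9.0 CPM in ml2, was 2.4 higher.

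The dark response of ml2 gives an outside scale, since ml2 shares no library with the comparison of ml5 and WT at day 7. This grouping was chosen after the data were seen. In ml2, 15548 genes were called between day 7 and day 0 (79.8%), 7714 higher (39.6%) and 7834 lower (40.2%). Of the 7714 higher with darkness, 3047 (39.5%) were lower in ml5 than in WT at day 7 and 1096 (14.2%) higher, beside 24% and 19.3% of all tested genes. Of the 7834 lower with darkness, 2095 (26.7%) were higher in ml5 and 1036 (13.2%) lower. The 701 genes that darkness raised by 4 or more on the log2 scale in ml2 had a median of -0.58 in ml5 against WT, and the 719 it lowered by over 4 had a median of 0.44. Without ml2 day 0 replicate 1 these medians were -0.58 and 0.44.

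**Figure D5:**
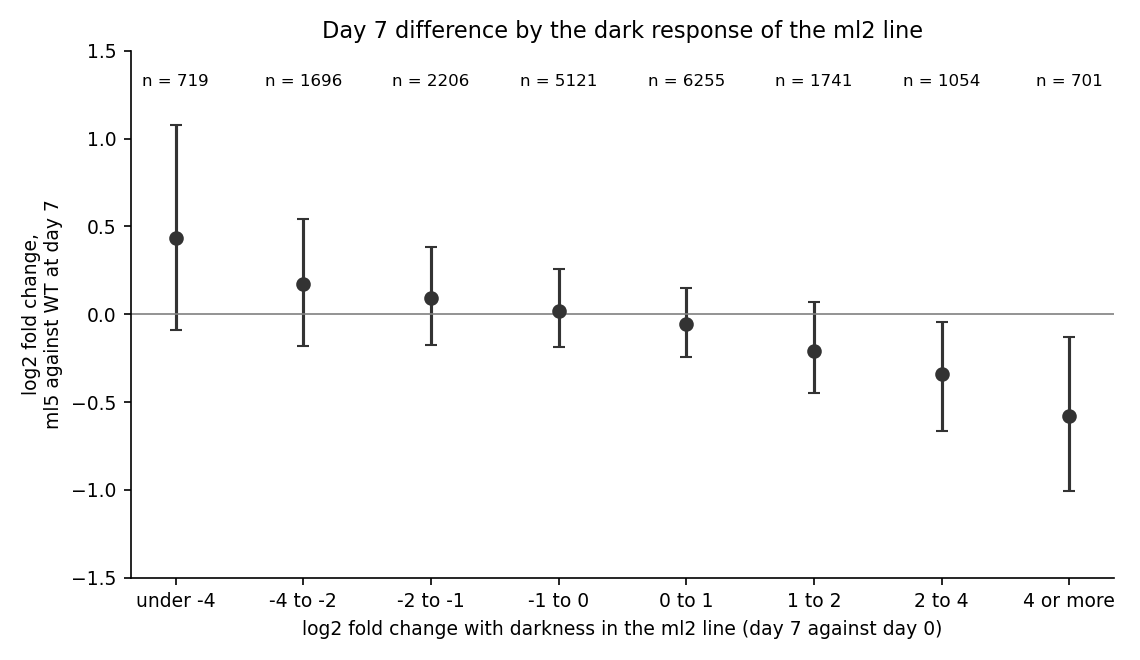
Median log2 fold change of ml5 against WT at day 7 (points) with quartiles (bars) for genes grouped by their log2 fold change with darkness in ml2, with the number of genes above each. Medians go from 0.44 for genes that darkness lowered most to -0.58 for those it raised most.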

How the data were processed

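RNA of leaves was made into libraries with a TruSeq kit after Trizol extraction, per the labels' protocols, which also mention doxycycline although no sample label gives it. TopHat2 2.0.12 with Bowtie2 2.0.6 did the alignment, per the submitters' processing notes, which name the TAIR10 build and also a rice build whose role is not given. The authors deposited estimated counts per gene, judged from the values: 97.12% of them are whole numbers and 1937 genes hold a fractional value. No source used here gives the counting tool, its strand setting or its treatment of multi-mapping reads, so reads of near-identical paralogs and overlapping antisense genes may be shared.

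Estimated counts were rounded and filtered by filterByExpr with a minimum count of 10. They were scaled by TMM and fitted by edgeR 4.0.16 (R 4.3.3) quasi-likelihood, with all 18 libraries in 1 model of 6 group means and no block for the replicate number. Tests were two-sided and adjusted by Benjamini-Hochberg over the 19493 tested genes of each comparison, with a threshold of 0.05. The contrasts were ml5 against WT at day 7 and at day 0, the difference of their dark responses, ml5 against ml2 at day 7, and ml2 at day 7 against day 0. DESeq2 1.42.0 and limma 3.58.1 (voom) were alternatives, beside other scalings, filters, sets of libraries and each library left out. The common biological coefficient of variation was 5.63%. On simulated data for ml5 against WT at day 7 (19376 genes), 29 of 50 genes changed 1.25-fold, 48 of 50 changed 1.5-fold, and all 50 changed 2-fold and all 50 changed 4-fold were called, with 9 false calls. The changed genes were drawn only from those above a minimum level in WT at day 7. They were also few beside the 8444 genes called in the data, so these rates do not carry over to genes of low counts.

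Gene symbols, neighbours and promoter sequences came from RefSeq TAIR10.1, and 27420 nuclear genes matched it. The members and the 47 gene lists were chosen with earlier results of these data known. Named genes followed a rule: the Mei2-like family, up to 4 members per list (the most abundant member where none was called) with the smallest adjusted p and groups that do not overlap, the 10 largest rises and falls at a mean of 5 CPM or more, 5 in each direction for the dark response difference and for ml5 against ml2, and the 3 highest-expressed genes called at least 2-fold in each direction. A gene picked by this rule whose day 7 call ended under another setting was left out. Some genes that the rule selects are not reported here. Genes beside these are marked as named after their values were seen, and ORE1, WRKY54, WRKY70, ORS1, PETC, PDF1.2, LHCB2.3, PAI3 and TSPO were too. So were COR413IM1, AT1G29450 and AT1G29460. Genes named in that way were not followed singly under the other settings. Replicate libraries of a group differed by more than counting noise, with a chi-square per degree of freedom of 1.75 to 4.10 in the 6 libraries, so none was counted as a copy of another.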

Additional observations from a re-analysis of the deposited data

Results flagged for a closer look

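For 10 genes a test of the difference itself found that the ml5 effect at day 7 was not the effect at day 0 (edgeR's quasi-likelihood test, Benjamini-Hochberg adjustment). They have the smallest adjusted p in each direction among the genes called clearly at day 7. The values are the dark response of ml5 minus that of WT on the log2 scale, from 3 libraries in each of 4 groups. On the positive side were ACD6 of salicylic acid defence (3.47), the cell wall protein gene ECS1 (2.34), the chloroplast ferric reductase FRO7 (2.14), the antenna gene LHCB5 (1.76) and the aldolase FBA2 (1.72). All 5 were higher in ml5 than in WT at day 7 and lower at day 0. The negative side held EXL1 (-6.01) and EXO (-5.31) of the EXORDIUM family, the xyloglucan enzyme XTH22 (-3.47), the ketoacyl-CoA synthase KCS12 (-2.87) and the blue copper protein SAG14 (-2.47). These 5 were lower in ml5 at day 7 and higher at day 0. EXL1 stood at 0.970 CPM in WT and 54.2 CPM in ml5 at day 0, and its day 7 difference was -0.24.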

How the results depend on the processing

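The count of genes called in ml5 against WT at day 7 stayed within 1.5 times 8444 under every alternative run, and so did the counts of the other 3 comparisons. With RLE size factors the split was 3817 higher and 4616 lower, then 4307 and 4072 with library sizes alone (51.4% higher against 44.6%), 3824 and 4680 without a filter, 3598 and 4495 with the stricter filter, 3730 and 4486 with DESeq2, 3813 and 4860 with limma-voom, and 4910 and 4849 with the 6 libraries alone (50.3% higher). Leaving out 1 library gave 7479 to 9077 genes at day 7, 6512 to 8121 at day 0, 6320 to 7605 for the dark response difference and 7036 to 8794 for ml5 against ml2, and the highest was each time without ml2 day 0 replicate 1, a step added after seeing the data. The replicate numbers did not pair the libraries (correlations of deviations of same-numbered libraries of -0.035, -0.011 and -0.026), and with the replicate number as a block 3688 genes were higher and 4584 lower. No gene picked by the naming rule reversed its direction at day 7, and genes named after their values were seen were not followed here. Single genes picked by the rule lost their day 7 call in 32 refits, all of ARR5, MCM2, ATCG00380, ATCG00730 and 3 cyclin genes, which the report does not use. Differences well under 1.5-fold may be missed at this depth.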
